A study of Homo sapiens with 34 samples.

Results

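Dimethylation of lysine 4 and acetylation of lysine 27 on histone H3 (H3K4me2 and H3K27ac) were compared in control KELLY cells, using the peak lists of the 6 DMSO libraries of these marks out of 34 samples, 30 of which have a peak list. KELLY is a human neuroblastoma line with an amplified MYCN gene. The cells carried a doxycycline-inducible shRNA to RUNX1T1, a transcriptional co-repressor, and were kept for 72 h with DMSO and no doxycycline, so every control library comes from cells that hold the uninduced construct. Chromatin was immunoprecipitated for 5 histone marks, with 3 libraries per mark and treatment, and the labels do not say whether the 3 came from separate cultures. The 9 DMSO lists of H3K4me1, H3K4me3 and H3K27me3 and the 6 doxycycline lists of the 2 marks served as further readouts at regions chosen without them. Peaks on chromosomes 1 to 22 and X were used. A region was placed at a promoter when it came within 1.0 kb of any annotated start of a protein-coding gene, and was called distal when it lay more than 2.5 kb from every such start. A consensus region was an interval of merged peaks that held a peak from all 3 lists of a mark, which gave 36644 regions for H3K4me2 and 39263 for H3K27ac.

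H3K27ac is laid down by the p300 and CBP acetyltransferases and is found at promoters and enhancers in use. H3K4me2 is laid down by the KMT2 and SETD1 enzymes and marks promoters and enhancers whether in use or held ready. Lysine 27 can instead be trimethylated by Polycomb repressive complex 2, so H3K27me3 and H3K27ac cannot sit on the same histone tail, whereas either can be found beside methylated lysine 4.

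The lists differed in how they were made and in length. H3K4me2 was called with narrow peaks at a p-value of 1e-05, and its weakest listed peak had a −log10 q of 3.19 or more. H3K27ac was called with broad peaks, so that its lists reach down to a −log10 q of about 1.0. Calling depth was 72.2 to 78.2 M reads per list. The first H3K4me2 list stood apart, with 88427 regions against 53389 and 57152 in the others, and 26.5% of them at promoters against 40.8% and 44.1%. Without it the H3K4me2 consensus held 39253 regions, and the counts of regions and genes with 1 mark alone are also given without it. The lists also hold 1011 to 2362 peaks each on alternate haplotype contigs, which were not used. The cell type label was checked on markers of the 2 known neuroblastoma states. Of 14 adrenergic markers, 14 had H3K27ac within 1.0 kb of a start in 3 of 3 lists, and 13 had H3K4me2. Of 9 mesenchymal markers, 3 had H3K27ac in 3 of 3 lists, 8 had H3K4me2, and 7 had H3K27me3. Over all protein-coding genes the shares were 65.8% for H3K27ac, 72.3% for H3K4me2 and 20.9% for H3K27me3.

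The centres of regions that lead each class are shown as examples, chosen by rank, and they need not be typical of their class in base composition or in other marks. Each is 200 bases on the plus strand of hg38, with CG dinucleotides in capitals. A leading promoter region with H3K4me2 and no H3K27ac peak in any list lay in an exon of GPRIN2. The leading distal regions of that class lay in intergenic sequence 9.56 kb from CHMP6 (an ESCRT subunit) and in a noncoding gene on the short arm of chromosome 21, whose nearest protein-coding start, TPTE, is 2102 kb away. The chromosome 21 region leads by −log10 q only. Its fold enrichments were 4.08, 3.32 and 2.72, below the class medians of 7.67, 5.10 and 4.23.
GPRIN2, chr10:46556534-46556733: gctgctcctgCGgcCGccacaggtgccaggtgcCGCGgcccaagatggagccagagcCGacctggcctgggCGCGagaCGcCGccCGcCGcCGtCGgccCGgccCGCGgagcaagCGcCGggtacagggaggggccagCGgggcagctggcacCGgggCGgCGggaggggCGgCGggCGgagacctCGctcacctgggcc
near CHMP6, chr17:80981385-80981584: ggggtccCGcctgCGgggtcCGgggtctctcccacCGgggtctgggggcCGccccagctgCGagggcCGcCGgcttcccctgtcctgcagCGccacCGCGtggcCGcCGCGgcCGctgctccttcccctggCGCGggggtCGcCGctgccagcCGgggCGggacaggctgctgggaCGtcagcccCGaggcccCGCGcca
chromosome 21 short arm, chr21:8418458-8418657: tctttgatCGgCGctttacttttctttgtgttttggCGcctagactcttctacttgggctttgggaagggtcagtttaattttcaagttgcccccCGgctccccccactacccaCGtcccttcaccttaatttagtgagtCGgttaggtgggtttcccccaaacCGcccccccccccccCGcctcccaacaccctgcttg
GPRIN2 held 26 CG dinucleotides in its 200 bases and the region near CHMP6 held 25, while the chromosome 21 region held 8. The SP/KLF box GGGCGG occurred, on either strand, 4 times at GPRIN2 and 2 times near CHMP6.

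The leading regions with H3K27ac and no H3K4me2 peak in any list were a 325 bp peak over a processed pseudogene inside GLT8D2, a 786 bp peak 108 bp from a TPTE start, a 4255 bp region over the pseudogene AFG3L1P, 10.01 kb from a DBNDD1 start, and a 3971 bp intergenic region 29.3 kb from BCL2A1 (a BCL2 family survival factor).
GLT8D2, chr12:104030791-104030990: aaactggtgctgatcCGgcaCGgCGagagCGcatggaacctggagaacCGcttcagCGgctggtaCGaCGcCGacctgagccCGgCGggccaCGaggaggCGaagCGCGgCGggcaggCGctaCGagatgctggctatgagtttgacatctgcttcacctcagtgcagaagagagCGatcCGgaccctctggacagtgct
TPTE, chr21:10521984-10522183: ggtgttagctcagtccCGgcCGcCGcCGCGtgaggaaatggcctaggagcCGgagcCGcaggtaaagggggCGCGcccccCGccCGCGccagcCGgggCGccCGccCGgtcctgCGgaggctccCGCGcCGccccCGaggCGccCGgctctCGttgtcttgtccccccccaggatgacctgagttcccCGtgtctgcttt
near DBNDD1, chr16:89995523-89995722: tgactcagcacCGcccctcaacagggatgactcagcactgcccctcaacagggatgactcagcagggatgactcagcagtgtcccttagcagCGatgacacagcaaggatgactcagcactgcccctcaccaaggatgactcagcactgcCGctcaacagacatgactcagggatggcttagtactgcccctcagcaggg
near BCL2A1, chr15:80002344-80002543: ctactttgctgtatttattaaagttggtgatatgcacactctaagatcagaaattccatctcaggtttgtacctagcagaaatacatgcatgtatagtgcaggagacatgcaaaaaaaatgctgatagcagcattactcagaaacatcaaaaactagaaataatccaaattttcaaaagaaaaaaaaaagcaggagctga
The region near DBNDD1 held 3 CG dinucleotides, and the AP-1 letters TGACTCA occurred in it 7 times on either strand. The region near BCL2A1 held 0 CG dinucleotides and had a GC content of 33.5%. The GLT8D2 and TPTE regions held 20 and 25 CG dinucleotides, and both had H3K4me3 in 3 of 3 lists. They had H3K27me3 in 1 and 2 of 3 lists. Both were untypical, as H3K4me3 was at 2.41% ± 0.104 of the promoter regions of this class and H3K27me3 at 1.203% ± 0.551.

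For comparison, the regions with the highest ranks in both marks lay at EEF1A2, a translation elongation factor of neurons and muscle, and on the short arm of chromosome 21, where the nearest protein-coding start is 4147 kb away.
EEF1A2, chr20:63499646-63499845: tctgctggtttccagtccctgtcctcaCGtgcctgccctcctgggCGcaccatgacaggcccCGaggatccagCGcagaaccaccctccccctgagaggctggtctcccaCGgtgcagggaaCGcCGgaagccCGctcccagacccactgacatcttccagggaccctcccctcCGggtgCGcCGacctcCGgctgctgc
chromosome 21 short arm, chr21:6371047-6371246: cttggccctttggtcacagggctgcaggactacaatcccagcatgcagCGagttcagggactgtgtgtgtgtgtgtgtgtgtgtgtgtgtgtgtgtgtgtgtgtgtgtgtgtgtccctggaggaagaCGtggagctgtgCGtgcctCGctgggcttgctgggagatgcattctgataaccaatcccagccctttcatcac
EEF1A2 lay in a 9115 bp region that ranked at percentiles of 99.97, 99.89 and 99.97 in the H3K4me2 lists and 99.94, 99.93 and 99.97 in the H3K27ac lists, and its central 200 bases held 12 CG dinucleotides.

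In the lists as deposited, H3K27ac covered more of the genome than H3K4me2. The H3K4me2 lists covered 99.2, 60.9 and 43.96 Mb in replicates 1, 2 and 3, and the H3K27ac lists covered 148, 124 and 113 Mb, so the groups did not overlap. The difference in log2 length was -0.99, a 1.98-fold shorter cover for H3K4me2 (exact two-sided permutation test, p = 0.1, 0.167 after Benjamini-Hochberg adjustment over 5 tests, n = 3 per mark). Over 12 alternative settings, single lists left out among them, the exact permutation p for covered length ran from 0.1 to 0.7. The difference was thus not equally clear under all of them. At promoters the median width was 1580, 1319 and 873 bp for H3K4me2 and 2033, 2028 and 1800 bp for H3K27ac. At distal sites it was 608, 637 and 422 bp for H3K4me2 and 1032, 1189 and 947 bp for H3K27ac. H3K4me2 peaks were thus narrower in every list, by 0.68 on the log2 scale at promoters (1.598-fold) and by 0.94 at distal sites (1.92-fold), each with an exact permutation p of 0.1 (0.167 adjusted). With 3 lists per mark, 0.1 is the smallest p the test allows. Mark and calling mode cannot be told apart here, and when peaks of a list within 1.0 kb were joined the promoter widths turned, to 2470, 2167 and 1847 bp for H3K4me2 against 2052, 2028 and 1818 bp, while distal H3K4me2 regions stayed narrower at 729, 757 and 556 bp against 1043, 1189 and 956 bp.

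**Figure D1:**
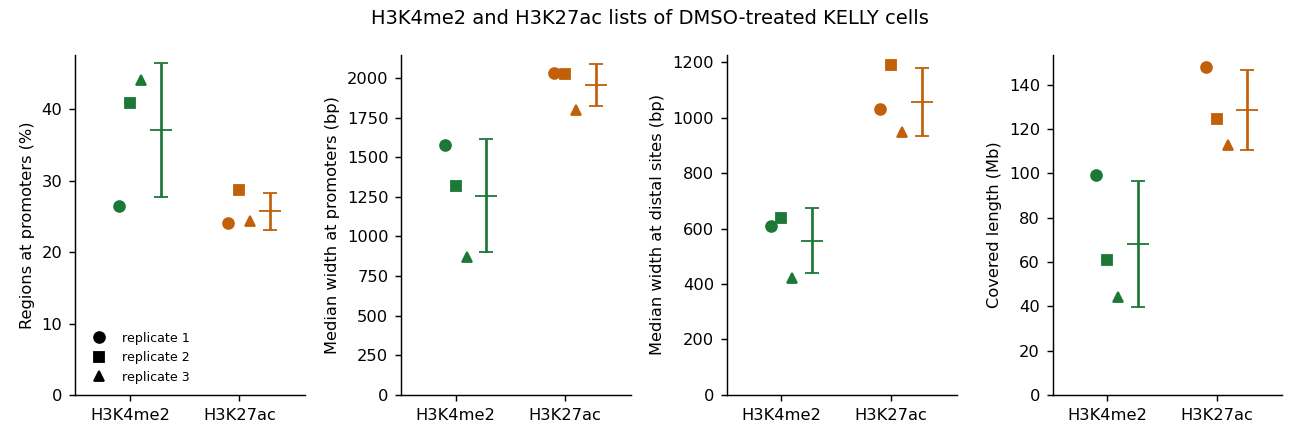
Share of regions at promoters (%), median width at promoters and at distal sites (bp) and covered length (Mb) for each list, with mean and SD (n = 3 lists per mark) beside the points. H3K4me2 lists lie below all H3K27ac lists for both widths and for covered length, while the first H3K4me2 list (26.5%) falls among the H3K27ac lists (24.1 to 28.7%) for the promoter share.

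The share of regions at promoters was 26.5, 40.8 and 44.1% for H3K4me2 and 24.1, 28.7 and 24.4% for H3K27ac. The means were 37.2% ± 9.36 and 25.7% ± 2.57 (SD, n = 3), and the difference of 11.4 percentage points was not past the threshold (exact permutation p = 0.2, 0.25 adjusted). Its direction depended on where the lists end. With peaks of a q of 0.001 or less the H3K27ac shares were 35.01, 41.2 and 41.01% and the difference was -1.93 points, and with a q of 1e-10 or less the shares were 32.9, 50.3 and 55.0% for H3K4me2 and 56.9, 62.6 and 66.8% for H3K27ac, a difference of -16.1 points. Promoter peaks ranked above distal peaks in both marks. Ranked by −log10 q within its list, the median promoter peak lay 43.2, 39.5 and 36.4 percentile points above the median distal peak in the H3K4me2 lists and 41.9, 41.1 and 42.4 points above it in the H3K27ac lists, a difference of -2.11 points (exact permutation p = 0.4, 0.4 adjusted) that turned to 4.83 points with a q of 1e-10 or less and to 0.071 with peaks within 1.0 kb joined. Median fold enrichment was 10.7, 7.55 and 5.36 at promoters and 4.46, 4.18 and 3.89 at distal sites for H3K4me2, against 5.40, 5.08 and 4.12 and 2.44, 2.39 and 2.34 for H3K27ac.

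Most H3K4me2 regions also carried H3K27ac, at promoters and at distal sites, whereas most H3K27ac regions carried H3K4me2 at promoters and fewer did at distal sites. Of 18443 H3K4me2 consensus regions at promoters, 87.2% shared at least 1 bp with an H3K27ac consensus region (95% exact binomial interval 86.7 to 87.6, for counting only), and of 17067 distal ones 79.2% did (78.5 to 79.8). Of 14291 H3K27ac regions at promoters, 88.1% shared bases with an H3K4me2 consensus region, but of 23769 distal ones 44.1% did (43.5 to 44.8). A further 42.5% of the distal ones met only H3K4me2 peaks outside the consensus, and 13.4% met no H3K4me2 peak in any list. Between same-numbered single lists, the share of distal H3K27ac peaks that met H3K4me2 was 58.8, 42.8 and 30.01%, against 85.6, 84.1 and 81.4% at promoters. The distal share stayed below the promoter share in each of the 3 pairs. It rose to 67.1% with peaks of a q of 0.001 or less and to 77.5% with a q of 1e-10 or less, while that of distal H3K4me2 regions with H3K27ac fell to 66.1% and 44.3%.

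Rank in H3K27ac ordered this share. Distal H3K27ac regions were divided into 10 equal groups by their mean percentile. An H3K4me2 consensus region was present at 7.66% of the weakest group and 96.6% of the strongest, and the share climbed at each step between. In single lists, 53.0, 16.5 and 12.7% of the weakest group had an H3K4me2 peak in replicates 1, 2 and 3. No list had one at 46.3% of that group. At promoters the share with a consensus region went from 27.01% in group 1 to 91.6% in group 3 and 100% in group 10. Rank in H3K4me2 did not order the share with H3K27ac in that way, which was 73.5 to 82.0% over the 10 groups of distal H3K4me2 regions and 79.0 to 91.3% over those at promoters, with 83.1% in the strongest promoter group. Width moved with rank, from a median of 1632 bp in the weakest to 5219 bp in the strongest group of distal H3K27ac regions and from 1018 to 1953 bp for distal H3K4me2. The H3K27ac lists reach down to a −log10 q of about 1.0, while the H3K4me2 lists stop at 3.19 or more. Overlap was counted from 1 bp. The parts of width and of these list ends in the shares of the 10 groups were not tested.

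**Figure D2:**
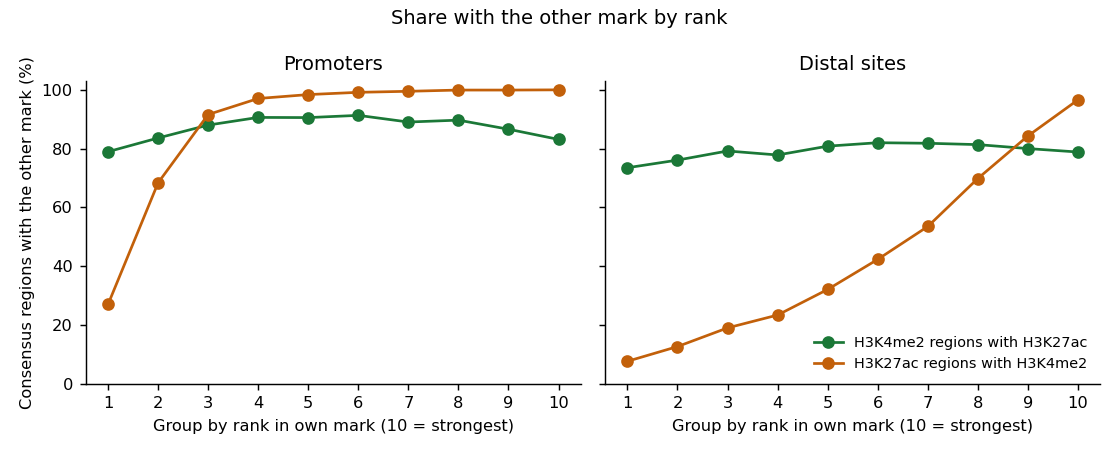
Percent of consensus regions that share bases with a consensus region of the other mark (vertical axis), by group of rank within their own mark (horizontal axis, 10 = strongest), for promoters and distal sites. H3K27ac climbs from 7.66 to 96.6% at distal sites, while H3K4me2 stays between 73.5 and 82.0%.

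Where both marks were present, their strengths were only loosely related at promoters and more closely at distal sites. There were 12603 joint promoter regions and 10443 joint distal regions with a consensus of both. Over these, Spearman's rho between an H3K4me2 list and an H3K27ac list averaged 0.189 at promoters (0.159 to 0.224 over 9 list pairs) and 0.466 at distal sites (0.412 to 0.509). Lists of a mark were far closer to each other, with a mean rho of 0.843 at promoters and 0.769 at distal sites for H3K4me2 and of 0.956 and 0.924 for H3K27ac. These are descriptions across regions, which share libraries, input and base composition. H3K4me3, the promoter mark made by the same enzyme family, had a mean rho with H3K27ac of 0.478 at promoters (0.399 to 0.548 over 9 list pairs) and with H3K4me2 of 0.382 (0.328 to 0.446), so these ranges overlapped. At the 3799 to 5195 joint distal regions with H3K4me3 the values were 0.258 (0.233 to 0.283) with H3K27ac and 0.626 (0.561 to 0.682) with H3K4me2. H3K4me1 had a rho of 0.266 with H3K4me2 and of -0.05 with H3K27ac at promoters.

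At genes with both marks, the peak cover of the marks differed around the start. Of 19970 protein-coding genes, 12754 had both marks within 1.0 kb of a start, which need not be the same start for each mark. At the canonical start itself, an H3K4me2 peak was present in 68.2, 58.2 and 30.5% of these genes, whereas 400 bp upstream it was present in 89.4, 82.3 and 67.9% and at its downstream maximum, 500 to 700 bp into the gene, in 93.2, 88.6 and 77.4%. H3K27ac covered the start in 93.4, 92.1 and 90.2% of them, and H3K4me3, whose lists were also called narrow, in 93.8, 94.0 and 92.9%. H3K4me2 peaks thus flanked the start in all 3 libraries, and neither H3K27ac nor H3K4me3 showed such a dip. H3K27ac was called broad, with linking of nearby peaks, so for H3K27ac mark and calling mode cannot be told apart here. In 33.1% of joint promoter regions, against 12.2% of joint distal regions, more than 1 H3K4me2 consensus region sat in the same joint region.

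**Figure D3:**
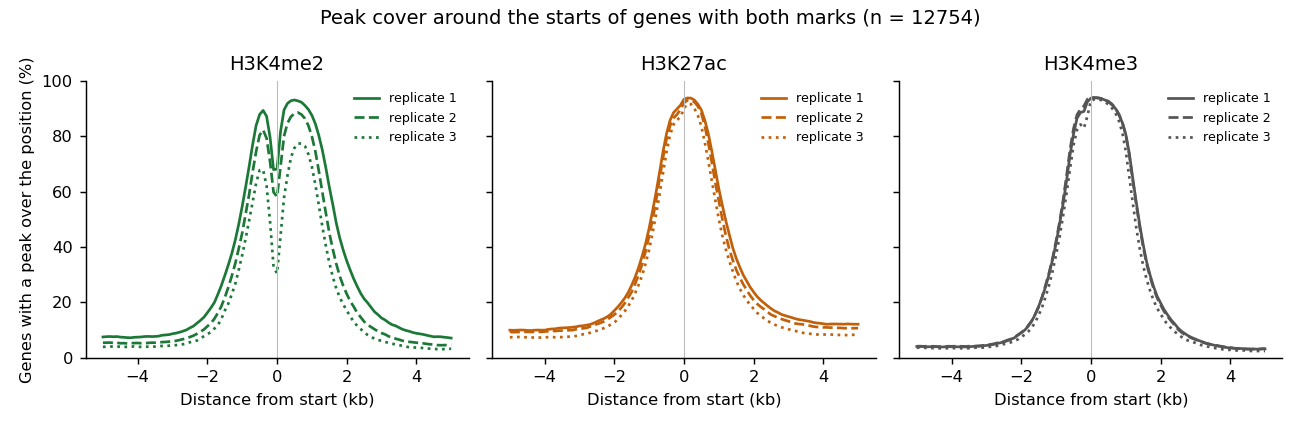
Percent of 12754 genes with both marks that have a peak over each position (vertical axis) against distance from the canonical start in kb (horizontal axis), 1 line per list. H3K4me2 falls at the start to 68.2, 58.2 and 30.5% between flanking maxima, while H3K27ac and H3K4me3 stay above 90% there.

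HAND2, a basic helix-loop-helix factor of the adrenergic core circuit, had no H3K4me2 peak within 1.0 kb of its starts. An H3K27ac peak of 40.5, 39.4 and 39.5 kb covered its starts in the 3 lists, at the 99.9, 99.9 and 99.7th percentile and with fold enrichments of 19.9, 16.2 and 10.2. H3K4me3 peaks of 24.3, 24.3 and 19.3 kb lay over them too. The nearest H3K4me2 peak was 1.41, 2.07 and 2.38 kb away and the nearest H3K4me1 peak 5.88, 5.90 and 6.95 kb, so HAND2 was classed as having H3K27ac without H3K4me2 at its start. Farther from the start, 4, 5 and 12 H3K4me2 peaks lay inside the acetylated interval in replicates 1, 2 and 3. Its promoter, 250 bases before to 50 bases after the RefSeq start, is printed because HAND2 was singled out after its values were seen (GRCh38.p14, minus strand, CG in capitals, 15 of them).
HAND2, chr4:173530180-173530479: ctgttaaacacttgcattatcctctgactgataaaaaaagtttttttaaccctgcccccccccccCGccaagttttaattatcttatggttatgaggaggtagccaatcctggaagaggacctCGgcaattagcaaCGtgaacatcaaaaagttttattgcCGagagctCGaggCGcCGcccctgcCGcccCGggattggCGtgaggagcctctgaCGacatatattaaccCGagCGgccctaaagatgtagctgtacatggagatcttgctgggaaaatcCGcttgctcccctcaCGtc
Other adrenergic factors showed the same arrangement in part. Of the 19 in the list with both marks or H3K27ac alone, 4 had no H3K4me2 peak over the canonical start in any list, namely HAND1, HAND2, ISL1 and SOX11, and 4 had one in all 3. Over 11350 genes with both marks and H3K27ac over the start in every list, 27.6% had no H3K4me2 there in any list and 28.2% had it in all 3, so the adrenergic factors did not stand out from other genes by this count. By width of the H3K27ac peak over the start, the mean share of starts with H3K4me2 was 69.8% in the narrowest of 10 equal groups (median 1049 bp), 45.2% in group 6 (2447 bp) and 62.6% in the widest (8103 bp).

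H3K4me2 without any H3K27ac peak was found at 1721 promoter regions (9.33% of those with H3K4me2) and 2014 distal regions (11.8%), and most of the promoter ones carried the Polycomb mark. An H3K27me3 peak overlapped 84.3% ± 4.02 of the promoter regions (SD over 3 H3K27me3 libraries, 81.7 to 88.9), against 3.74% ± 0.959 of H3K4me2 promoter regions with H3K27ac. At distal sites it overlapped 46.8% ± 5.75 (42.8 to 53.4), against 1.75% ± 0.392. In each H3K27me3 library the share was higher without H3K27ac than with it, and the ranges did not overlap. H3K4me3 was at 94.1% ± 2.56 of the promoter regions without H3K27ac and 95.02% ± 0.994 of those with it, which differ by less than the SD over libraries, and at 68.0% ± 4.88 and 41.3% ± 7.39 of the distal regions, where the libraries of the 2 classes did not overlap. H3K4me1, H3K4me3 and H3K27me3 were present together, each in at least 2 of 3 libraries, at 80.9% of the promoter regions and 38.5% of the distal regions with H3K4me2 and no H3K27ac. This combination held at 3.303% and 1.37% of those with H3K27ac. With only peaks of a q of 0.001 or less in the lists that define the class, the H3K27me3 share was 76.3% at promoters and 31.9% at distal sites, and with a q of 1e-10 or less it was 59.0% and 21.7%.

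**Figure D4:**
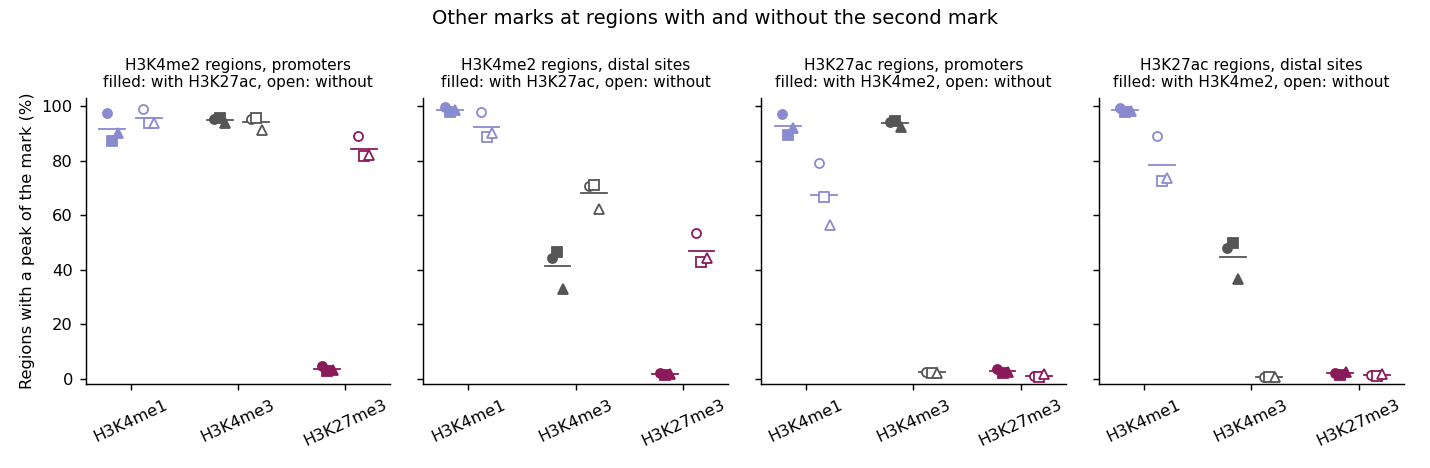
Percent of consensus regions that overlap a peak of H3K4me1, H3K4me3 or H3K27me3 in each DMSO library (vertical axis), for H3K4me2 and H3K27ac regions at promoters and distal sites. Filled symbols are regions with the second mark, open symbols regions with no peak of it, and bars are means of 3 libraries, with H3K27me3 at 84.3% of H3K4me2 promoter regions without H3K27ac against 3.74% of those with it.

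These regions were not weak in H3K4me2. Their median percentile was 76.5 at promoters and 54.0 at distal sites, next to 80.1 and 53.0 for regions with H3K27ac, and their median fold enrichments at promoters were 11.2, 7.72 and 5.40 in the 3 lists against 11.9, 8.08 and 5.85. They were narrower, with a median of 1364 bp against 2059 bp at promoters and 940 bp against 1579 bp at distal sites. In the central 500 bp the median was 47 CG dinucleotides at promoters against 19 with H3K27ac, and 21 against 8 at distal sites, with GC contents of 69.6% against 55.6% and 58.6% against 50.8%. The SP/KLF box GGGCGG, on either strand, was in 82.5% of the promoter windows against 48.4% with H3K27ac and 52.4% of all H3K4me2 promoter regions, and in 50.4% of the distal windows against 23.2% and 26.96%. The contrast at promoters depended on where the window was centred: centred on H3K27ac regions with H3K4me2, the median was 34 CG dinucleotides and the SP/KLF box was in 63.6%. The GATA letters AGATAA, read on either strand, were in 5.52% of the promoter windows against 17.9% with H3K27ac and 16.5% of all, and in 18.3% of the distal windows against 29.5% and 28.2%. Centred on H3K27ac promoter regions with H3K4me2, these letters were in 11.4% of windows. The nearest H3K27ac peak was a median of 26.5 kb away at promoters and 17.9 kb at distal sites.

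In the doxycycline libraries, which were not used to choose them, the promoter regions carried H3K4me2 in 98.5% ± 1.35 and H3K27ac in 4.65% ± 2.97 of cases (n = 3 lists each), and the distal regions in 92.4% ± 6.76 and 4.95% ± 2.34. Over all H3K4me2 regions, these lists held H3K4me2 at 99.0% ± 0.645 and H3K27ac at 88.0% ± 1.64 of the promoter ones. At all distal H3K4me2 regions the shares were 90.6% ± 3.99 and 76.7% ± 3.45. The doxycycline-treated cells also had the RUNX1T1 shRNA induced, so the libraries differ from the control by treatment.

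Acetylation without any H3K4me2 peak was found at 554 promoter regions (3.88%) and 3174 distal regions (13.4%), and these were the weakly acetylated ones. Their median percentile was 34.2 at promoters and 34.0 at distal sites, against 87.6 and 71.5 for H3K27ac regions with H3K4me2, and their median fold enrichments were 2.33, 2.23 and 2.16 at promoters against 6.75, 5.96 and 4.65. Of the 554 promoter regions, 1 was at or above the 75th percentile of its list ranks on average, and of the 3174 distal regions 10 were. They carried H3K4me1 in 67.3% ± 11.4 (promoters) and 78.5% ± 9.30 (distal sites) of cases, H3K4me3 in 2.41% ± 0.104 and 0.620% ± 0.0728, and H3K27me3 in 1.203% ± 0.551 and 1.43% ± 0.437. H3K4me3 was thus nearly absent from them, against 93.8% ± 1.14 and 44.7% ± 7.23 of the H3K27ac regions with H3K4me2. H3K4me1 was less frequent in them too, against 92.8% ± 4.04 and 98.5% ± 0.839 of the H3K27ac regions with H3K4me2. Of the regions with H3K27ac alone, 26.5% at promoters and 17.1% at distal sites had none of these 3 marks in at least 2 of 3 libraries. Their central 500 bp held a median of 9 CG dinucleotides at promoters, against 34 with H3K4me2. The doxycycline lists held H3K27ac at 74.5% ± 12.2 of the promoter regions and 59.9% ± 10.3 of the distal ones, and H3K4me2 at 1.62 to 28.7% and 0.882 to 21.9% of them. Over all H3K27ac regions at promoters and distal sites, they held H3K27ac at 96.6% ± 1.71 and 78.6% ± 4.84. H3K4me2 was at 89.7 to 95.4% and 49.9 to 70.8% of all H3K27ac regions.

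The number of these acetylated regions rested on the list ends and on single libraries. With peaks of a q of 0.001 or less it fell to 52 at promoters and 292 at distal sites, and with a q of 1e-10 or less to 2 and 22. Without H3K4me2 replicate 1 it was 1126 and 8657, without H3K27ac replicate 2 it was 840 and 6161, and without H3K27ac replicate 3 it was 1061 and 6180. The count of H3K4me2 regions without H3K27ac was 1778 at promoters and 2067 at distal sites without H3K4me2 replicate 1, and the distal count was 3549 without H3K4me2 replicate 3.

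Per gene, both marks were called in all lists at 12754 of 19970 protein-coding genes (63.9%), and neither at 4015 (20.1%). H3K4me2 without any H3K27ac peak was found at 1306 (6.54%) and H3K27ac without any H3K4me2 peak at 127 (0.636%). The remaining 1768 (8.85%) had a mark in some lists only, or in lists whose peaks did not join into a consensus region. A gene with both marks could have them at different starts. Without H3K4me2 replicate 1 the 127 became 314, the 1306 became 1287, the 12754 became 12705 and the 4015 became 4348. H3K27me3 was within 1.0 kb of a start of 91.3% ± 2.62 of the 1306 genes, against 10.5% ± 2.19 of the genes with both marks and 46.4% ± 6.77 of those with neither. H3K4me3 was present at 95.3% ± 2.50 and 98.6% ± 0.181 of the first 2 classes and at 8.92% ± 0.455 of the 127 genes with H3K27ac alone.

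Most genes of the adrenergic identity carried both marks, as did most housekeeping genes (18 of 20). In the list of adrenergic core transcription factors 18 of 20 had both marks, beside 63.9% of all genes. In that list 0 had H3K4me2 without H3K27ac, beside 6.54% of all genes. GATA2, a zinc finger factor of sympathetic neurons, lay at percentiles of 98.1, 94.5 and 94.1 for H3K4me2 and 99.8, 99.8 and 99.5 for H3K27ac. DACH1, a homologue of a fly eye determination factor, lay at 70.5, 69.4 and 34.9 against 98.9, 98.2 and 98.1, so its acetylation ranked above its H3K4me2 in all lists. HAND2 had H3K27ac without H3K4me2, as described above. MYCN, which is amplified in this line, had H3K27ac at percentiles of 53.2, 26.6 and 0.455 with fold enrichments of 1.17, 1.12 and 1.10, and H3K4me2 in 1 list only. Peaks were called against input, which holds the amplified copies too, so these values do not measure how strongly MYCN was marked. The part of copy number in them was not tested. Among noradrenergic and neuronal effector genes 18 of 20 had both marks, including the receptor kinase gene ALK (97.6, 98.7 and 96.8 for H3K4me2, 96.7, 96.1 and 96.7 for H3K27ac), the granin genes CHGA and CHGB, and DBH, which encodes the enzyme that makes noradrenaline. NPY, a neuropeptide of sympathetic neurons, had strong H3K4me2 (97.1, 96.9 and 96.8), H3K27ac in 2 lists at 47.3 and 45.1, and H3K27me3 in 2 of 3 lists.

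Many genes of the mesenchymal state had H3K4me2 with little or no acetylation. Of 20, 6 had both marks and 8 had H3K4me2 without H3K27ac, beside 6.54% of all genes. H3K27me3 was in 3 of 3 lists at 13 of the 20 and H3K4me3 at 18, beside 20.9% and 72.6% of all genes. MEOX2, a mesodermal homeobox factor, ranked at 99.4, 99.2 and 97.7 for H3K4me2 with fold enrichments of 17.1, 14.1 and 8.76, and NOTCH2, a signalling receptor, at 96.4, 96.7 and 97.4, both with 0 of 3 H3K27ac lists and 3 of 3 H3K27me3 lists. FOSL1, an AP-1 subunit, lay at 76.2, 49.4 and 71.2 and RUNX1 at 90.3, 78.3 and 81.3. VIM, the gene of the intermediate filament vimentin and named after its values were seen, lay at 96.5, 86.9 and 92.1 and also lacked H3K27ac in every list. COL1A1, a collagen chain, had both marks but with H3K27ac at percentiles of 11.8, 7.34 and 3.84 and H3K4me2 at 95.5, 94.4 and 88.0. FOSL2 and JUN, AP-1 subunits, were strong in both, with FOSL2 at 99.5, 98.6 and 98.5 for H3K4me2 and 99.2, 98.4 and 99.2 for H3K27ac.

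Polycomb-regulated developmental factors divided between H3K4me2 without acetylation and no mark. Of 30, 11 had H3K4me2 without H3K27ac, 9 had neither, 3 had both (GATA4, HOXD13 and LHX9) and 7 were mixed, and 28 had H3K27me3 in 3 of 3 lists. Over all genes the same shares were 6.54, 20.1, 63.9 and 8.85%, with H3K27me3 at 20.9%. Without H3K4me2 replicate 1, 15 of the 30 had neither mark. GATA6, a factor of endoderm and heart, lay at 94.5, 86.6 and 96.2 for H3K4me2, BARHL2, a neural homeobox factor, at 94.8, 90.7 and 95.6, and EOMES, a T-box factor, at 85.8, 75.2 and 87.6. CDX2, EVX1, FOXA2 and NEUROD2 had neither mark and H3K27me3 in 3 of 3 lists. Among 12 immediate early genes 10 had both marks, beside 63.9% of all genes. EGR2 (88.4, 80.3 and 87.0 for H3K4me2) and EGR3 (88.0, 82.0 and 49.97) had H3K4me2 without H3K27ac, with H3K27me3 in 3 of 3 lists, whereas ATF3 (99.2, 100.0 and 98.4 for H3K4me2, 95.4, 94.3 and 95.6 for H3K27ac) had both marks and H3K27me3 in 3 of 3 lists as well.

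Among 20 genes of unrelated differentiated tissues 0 had both marks, 11 had neither, 4 had H3K4me2 without H3K27ac (among them HBA1, MYOD1 and SFTPC) and 2 had H3K27ac without H3K4me2 (among them INS). Over all genes the same shares were 63.9, 20.1, 6.54 and 0.636%. INS, the insulin gene, had the same H3K27ac percentiles (93.2, 87.9 and 82.2) as TH, the tyrosine hydroxylase gene next to it. The 18 genes of H3K4 methyltransferases and demethylases all had both marks, as did 13 of 15 genes of H3K27 acetyltransferases and deacetylases and 18 of 20 housekeeping genes, beside 63.9% of all genes. The exceptions among these, BRD2, HDAC8, RPS18 and TUBB, had H3K27ac in 3 of 3 lists and H3K4me2 in 1 or 2.

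**Figure D5:**
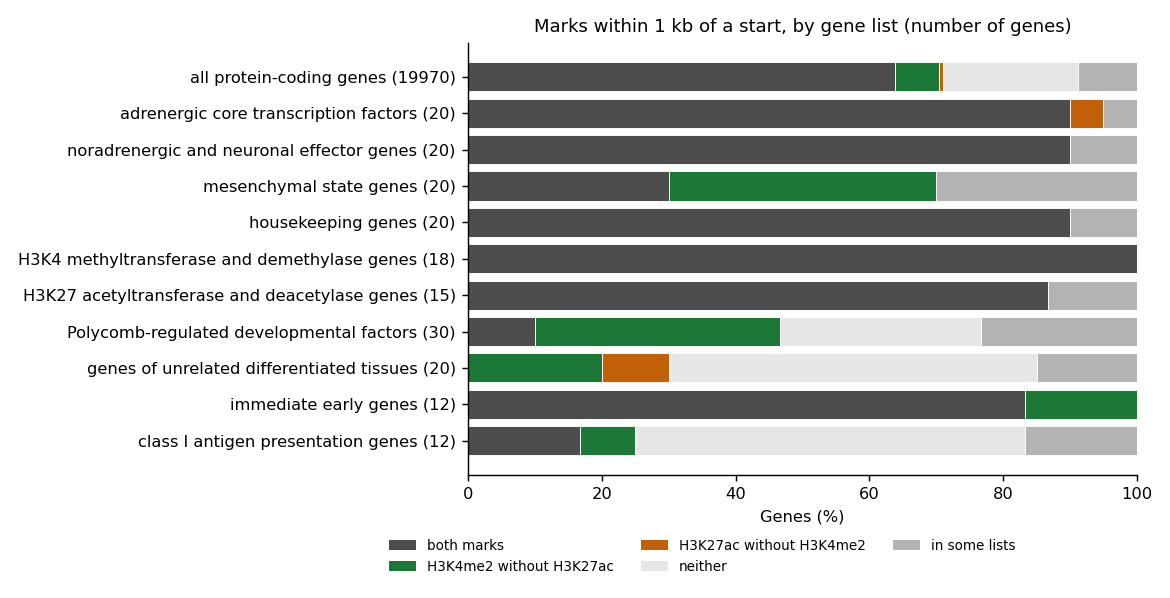
Percent of genes (horizontal axis) in each class of marks within 1 kb of a start, for all 19970 protein-coding genes and for 10 gene lists, with the number of genes in brackets. H3K4me2 without H3K27ac holds 8 of 20 mesenchymal and 11 of 30 Polycomb-regulated genes and 0 of 20 adrenergic factors, beside 6.54% of all genes.

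BRD2, RPS18, TUBB and most class I antigen presentation genes lie together on the short arm of chromosome 6, where the libraries differed. Between HLA-F and TAPBP (chr6:29722775-33314284) there were 149 protein-coding genes. H3K4me2 was within 1.0 kb of a start for 46.3% of them in replicate 1, 3.36% in replicate 2 and 6.71% in replicate 3, while H3K27ac was at 49.0, 41.6 and 43.6%. Over all genes the H3K4me2 lists ranged from 72.8 to 78.0% and the H3K27ac lists from 66.9 to 69.6%. The 3 H3K4me2 lists held 674, 76 and 88 peaks on alternate contigs of chromosome 6, and the H3K27ac lists held 411, 319 and 349. The part of the alternate contigs in these gaps was not tested. Of 12 class I antigen presentation genes 7 had neither mark, among them HLA-B, HLA-E, HLA-F and PSMB8, and 2 had both, B2M and NLRC5, which lie outside this span. Neither mark was called at 46.3% of the genes in the span and at 20.1% of all genes, and both at 2.01% and 63.9%.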

How the data were processed

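The authors sequenced ChIP libraries of KELLY cells, aligned reads to hg38 with Bowtie2, kept a mapping quality of 30 and called peaks against input with MACS2 2.1.1.20160309, per the file headers and labels. The deposited lists give for each peak a fold enrichment, which is a ratio over input, and a −log10 q-value. The headers of the narrow lists say that q would not be calculated, yet that column holds values, which were used as deposited. H3K4me2 and H3K4me3 were called narrow and the other marks broad (q 0.05, linking at 0.1). The input totals of replicates 1 and 3 were identical, so those libraries share an input by this measure. Peaks of a list were merged where they shared 1 bp, and ranked as percentiles of −log10 q. Starts came from GENCODE release 44 (145921 starts of 19970 protein-coding genes). Marks were compared by exact two-sided permutation of list values over 20 assignments, with widths and lengths on the log2 scale and Benjamini-Hochberg adjustment over 5 tests. A gene had a mark where a consensus region came within 1.0 kb of a start, and lacked it where no list had a peak there. Up to 4 genes per list and class were named in alphabetical order, and the regions with the highest mean percentile of each class, outside chromosome 8, except for a few items that are not reported here. The comparison, gene lists and markers were chosen with earlier results of these data known. Consensus counts were checked with bedtools 2.31.1, which gave the same counts, and 12 of 12 planted quantities were recovered when tested on simulated data. Python 3.11.15, numpy 2.4.6, pandas 2.3.3 and scipy 1.17.1 were used. Intervals cover counting only. The 9 doxycycline lists of the other marks were not used here.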

Additional observations from a re-analysis of the deposited data

How the results depend on the processing

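The list ends mattered most. With a q of 0.001 or less, the difference in promoter share was -1.93 points, the H3K4me2 regions with H3K27ac were 84.3% at promoters and 66.1% at distal sites, the H3K27ac regions with H3K4me2 were 95.6% and 67.1%, distal H3K4me2 regions without H3K27ac numbered 3119, H3K27ac regions without H3K4me2 numbered 52 and 292, their genes 64, and H3K27me3 was at 76.3% and 31.9% of the H3K4me2 regions without H3K27ac. With a q of 1e-10 or less, the same values were -16.1 points, 73.9% and 44.3%, 96.6% and 77.5%, 3828 (2814 at promoters), 2 and 22, 38 genes, and 59.0% and 21.7%, with 2139 genes with H3K4me2 alone, a rank difference of 4.83 points and rho of 0.113 and 0.370. Joining peaks within 1 kb gave a promoter width difference of 0.13, a rank difference of 0.071 points and 84.7% of promoter H3K4me2 regions with H3K27ac. Lists of equal length gave 5027 distal H3K27ac regions without H3K4me2 and 208 such genes. A consensus from at least 2 lists gave 4313 distal regions with H3K4me2 alone, 1384 and 9218 with H3K27ac alone, 206 genes, and H3K27me3 at 80.0% and 35.1%. Asking for 50% of a region to be covered gave shares of 81.3% for H3K4me2 at promoters and 76.0% and 25.02% for H3K27ac, and 3183, 2545 and 13879 regions with promoter H3K4me2, promoter H3K27ac and distal H3K27ac alone. By covered bases the shares were 75.6% for H3K4me2 at promoters and 59.9% and 26.2% for H3K27ac. A promoter limit of 2.5 kb gave 84.6% of promoter H3K27ac regions with H3K4me2 and a rho of 0.229, and ranking by fold enrichment gave rho of 0.109 and 0.414. The causes of these shifts were not tested.

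Leaving out each list in turn, the differences ranged from 7.93 to 16.7 points for promoter share, -0.86 to -0.43 and -1.05 to -0.76 for log2 widths, -3.86 to -0.48 points for rank and -1.30 to -0.71 for log2 covered length. Overlap shares ranged from 85.4 to 88.4% and 74.1 to 82.5% for H3K4me2 and 84.4 to 91.1% and 37.3 to 57.6% for H3K27ac, at promoters and distal sites. Regions with H3K4me2 alone numbered 1754 to 2127 and 2067 to 3549, with H3K27me3 at 78.9 to 83.2% and 37.8 to 45.3%, and regions with H3K27ac alone 558 to 1126 and 3206 to 8657. Genes numbered 1287 to 1527 and 112 to 314, and rho ran from 0.182 to 0.260 and 0.452 to 0.529.

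With the replicate number as a block, exact sign flips over 3 same-numbered pairs gave the differences of 11.4 points, -0.68, -0.94, -2.11 points and -0.99 with exact p of 0.25, 0.25, 0.25, 0.5 and 0.25, where 0.25 is the smallest possible. Deviations of same-numbered lists correlated at 0.229, 0.224 and 0.07 across regions, and each list correlated best with its own number, but the labels do not tie the numbers to a culture or day. Leaving out 5 Mb either side of MYCN left all 19 results within these margins. No test could pass 0.05 with 3 lists per mark.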

Other observations

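Distal regions with H3K4me2 and no H3K27ac lay outside annotated genes more often (49.6%) than those with H3K27ac (34.7%), and 24.8% of their central 500 bp windows held the CTCF core letters AGGGGGC on either strand, against 14.4% with H3K27ac and 15.8% of all distal H3K4me2 regions. The homeobox core TAATTA, which reads the same on both strands, was in 2.09% of promoter windows without H3K27ac against 8.67% with it and 7.92% of all H3K4me2 promoter regions. Centred on H3K27ac promoter regions with H3K4me2, it was in 4.78% of windows. The classes also differ in GC content, and the part of base composition in these motif shares was not tested. Of the 4 promoter regions with H3K4me2 and no H3K27ac that ranked highest outside chromosome 8, 2 had H3K27me3 in 3 of 3 lists, 1 had it in 1 list and 1 in 0.

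Some of these regions carried the missing mark in cells treated with doxycycline. LHX4, a LIM homeobox factor of motor neurons and pituitary (3206 bp, chr1:180228860-180232065, H3K4me2 percentiles 99.9, 99.7 and 99.9) had H3K27ac in 0 of 3 DMSO lists and 3 of 3 doxycycline lists. H3K27ac was in all 3 doxycycline lists at 20 of the 1721 promoter regions and in 0 of the 3 at 1567. H3K4me2 was in all 3 doxycycline lists at 3 of the 554 promoter regions with H3K27ac alone. Whether these counts exceed those between replicate lists was not tested.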
